A study of Mus musculus with 9 samples.

Results

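Expression of the nuclear genes for mitochondrial ribosomal proteins was compared between primed mEpiSCs and the naïve mESCs from which they were made, after 5 and 15 passages (P5 and P15). The members are the protein-coding genes whose symbol is *Mrpl* or *Mrps* followed by a number and at most 1 letter. This rule found 78 of the 54232 genes in the count file, 49 named for the large subunit (*Mrpl*) and 29 for the small subunit (*Mrps*). They lie on 17 chromosomes, with at most 11 on any of them. Transcripts of 77 members were counted and tested in every comparison, and *Mrpl53* had 0 counts in all 9 libraries.

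Mitochondria keep a small genome that encodes core subunits of the respiratory chain, and they translate it with ribosomes of their own. All protein components of these ribosomes are encoded in the nucleus, made in the cytoplasm and imported, and they assemble in the matrix with the rRNAs of the mitochondrial genome. Many have bacterial homologs, while others are particular to mitochondria. In pluripotent cells the passage from the naïve to the primed state is known to be accompanied by a shift of energy metabolism from mixed respiration and glycolysis towards glycolysis. For its own cells the study reports, from RNA-seq and a Seahorse experiment, that glycolysis and oxidative phosphorylation both decreased in this transition.

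Naïve cells were OG2 mESCs of a C57BL6 × CBA background, which carry GFP under the distal part of the *Oct4* promoter, in serum with LIF. Primed cells were made from them in medium with bFGF and Activin A (F/A). Both were grown on mitomycin C-treated MEFs, embryonic fibroblasts that serve as feeder cells, and RNA of MEFs alone was sequenced as a further library. Each state had 2 libraries per passage, MEFs had 1, and all naïve and primed cells stem from 1 mESC line. The study calls such samples biological repeats, but whether they came from separate cultures is not given in the sources used here, so that p-values measure only the spread between these libraries, which may be technical.

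Between 14378051 and 20985136 reads were counted in each library of pluripotent cells, and 25646547 in that of MEFs. Of 6 naïve and 6 primed markers, all fell and all rose in primed cells, respectively, at both passages. Libraries of the same group differed by more than sampling noise, with chi-square values per gene of 2.10 to 3.28, and the biological coefficient of variation was 3.26% at P5 and 4.79% at P15. Of 20 fibroblast markers, none was at 0 in any naïve or primed library. Their median level was 15.2% to 15.7% of that in the MEF library in naïve P5 cells, 19.0% in primed P5 cells, 17.9% to 18.1% in naïve P15 cells and 28.2% to 28.3% in primed P15 cells, and single markers ranged from 3.23% to 391%. Their summed level was 8719 to 10530 CPM in the P5 libraries, 14524 to 17404 CPM in the P15 libraries and 66579 CPM in MEFs. The feeder share subtracted in some settings below is the median percent of these markers. The lowest marker of each library was at only 3.23% to 7.84% of its level in MEFs, so this setting may subtract too much. How much RNA came from feeder cells was not tested.

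Summed over all members, transcripts of mitochondrial ribosomal proteins were lower in primed than in naïve cells at P5, and the difference was smaller at P15. The sum was 3439 and 3526 CPM in the naïve P5 libraries and 2494 and 2519 CPM in the primed P5 libraries, where CPM are counts scaled to a common library size, corrected by edgeR's TMM method. At P15 it was 3784 and 3827 CPM in naïve cells and 3408 and 3365 CPM in primed cells. At both passages each primed library lay below each naïve library. The mean in primed cells was 72.0% of that in naïve cells at P5 and 89.0% at P15. From P5 to P15 the sum in primed cells went from 2507 ± 17.7 to 3386 ± 30.6 CPM (SD, n = 2), a ratio of 135%, while in naïve cells it went from 3482 ± 61.5 to 3805 ± 30.3 CPM, a ratio of 109%. Bulk libraries cannot tell fewer cells that express these genes from less of their RNA per cell.

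The scaling bears on these sizes. As a plain share of all counts, with no scaling, the members held 0.335% ± 0.00799 in naïve P5 cells, 0.284% ± 0.00208 in primed P5 cells, 0.360% ± 0.00454 in naïve P15 cells and 0.343% ± 0.00211 in primed P15 cells. On this measure primed cells had 84.7% of the naïve share at P5 and 95.0% at P15, and the primed share at P15 was 121% of that at P5. The order of the 4 groups differed between the measures only in that primed P15 cells ranked below naïve P5 cells after scaling and above them without it.

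**Figure D1:**
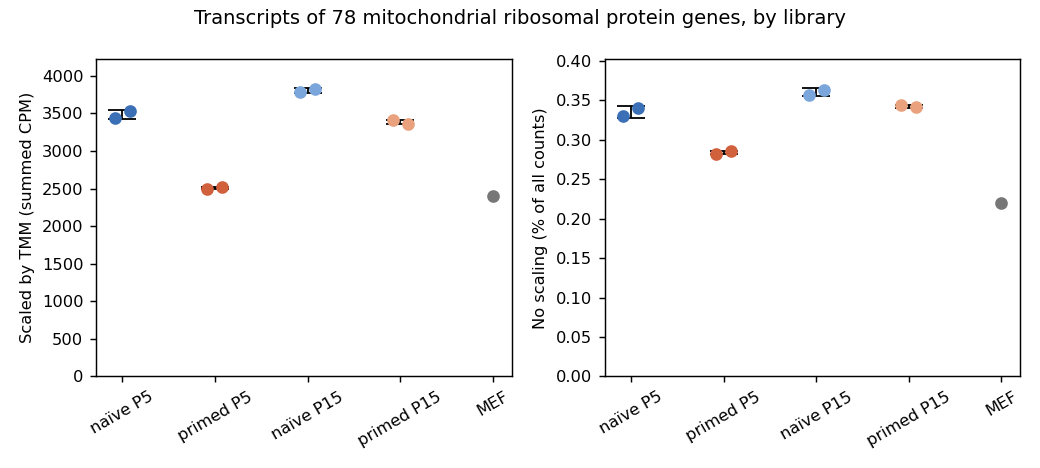
Summed transcripts of the 78 genes in each library, on the left in CPM after TMM scaling and on the right as a percent of all counts; points are libraries and error bars the mean ± SD of 2 libraries. The 2 primed P5 libraries, at 2494 and 2519 CPM, lie below all other naïve and primed libraries on both measures.

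Many genes of the mitochondrial translation machinery have short promoters with sites for NRF1, for ETS factors such as GABP (NRF2) and for YY1, factors known for the control of nuclear genes of mitochondria. Promoters, taken from 250 bases before to 50 bases after the RefSeq start site (GRCm38.p6), were found for 69 of the 78 members and searched on both strands for GCGCNTGCG (NRF1), CCGGAAG (the ETS core), AAGATGGC (YY1) and the E-box CACGTG. These members had 75 promoters, and a gene was counted once if any of its promoters held a match. The NRF1 letters were found for 26.1% of members against 7.12% of all genes with such promoters, and the ETS letters for 37.7% against 9.93%. For the YY1 letters the shares were 17.4% against 3.19%, and for the E-box 7.25% against 8.09%. Among the protein-coding genes tested at P5, the shares were 14.1%, 18.4%, 4.82% and 11.4%. At least 1 of the NRF1, ETS and YY1 letters was found for 44 of the 69 members (63.8%), against 32.4% of those tested genes. These matches describe the windows and are no evidence of binding.

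The following 6 windows, from 120 bases before to 30 bases after the start site, belong to members described below. *Mrps12* and *Mrps26* fell strongly in primed cells at P5, *Mrpl12*, *Mrps26* and *Mrps27* differed most between the passages or have a role of their own, *Mrpl57* rose from P5 to P15 in primed cells, and *Mrpl23* was the member that was higher in primed cells at both passages. Capitals mark the NRF1, ETS and YY1 letters, which *Mrpl23* lacks. Windows of the same length of *Mrps24*, *Mrpl47* and *Mrps18b*, which fell at both passages, lack these letters too and are not printed. In *Mrps24* and *Mrps18b* matches lie outside that window in the longer promoter. The 6 printed windows therefore do not show that the letters go with a fall.
*Mrps12* (chr7:28741792-28741941, minus strand): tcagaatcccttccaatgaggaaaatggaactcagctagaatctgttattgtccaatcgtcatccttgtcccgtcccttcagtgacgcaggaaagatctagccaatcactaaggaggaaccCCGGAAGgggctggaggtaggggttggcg
*Mrps26* (chr2:130563637-130563786, plus strand): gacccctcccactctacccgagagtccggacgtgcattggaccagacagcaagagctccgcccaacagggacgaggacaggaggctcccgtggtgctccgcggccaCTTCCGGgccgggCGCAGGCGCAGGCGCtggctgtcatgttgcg
*Mrpl12* (chr11:120484517-120484666, plus strand): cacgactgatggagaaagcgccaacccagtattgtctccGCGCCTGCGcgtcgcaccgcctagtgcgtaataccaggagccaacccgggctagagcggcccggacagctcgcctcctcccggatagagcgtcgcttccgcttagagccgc
*Mrpl57* (chr14:57826119-57826268, plus strand): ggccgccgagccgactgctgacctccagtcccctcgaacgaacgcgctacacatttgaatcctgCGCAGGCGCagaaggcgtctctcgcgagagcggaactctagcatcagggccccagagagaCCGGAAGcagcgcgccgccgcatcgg
*Mrps27* (chr13:99344666-99344815, plus strand): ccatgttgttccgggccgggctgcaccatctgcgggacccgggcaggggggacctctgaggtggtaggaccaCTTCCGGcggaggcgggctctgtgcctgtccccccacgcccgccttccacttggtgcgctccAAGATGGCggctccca
*Mrpl23* (chr7:142532912-142533061, plus strand): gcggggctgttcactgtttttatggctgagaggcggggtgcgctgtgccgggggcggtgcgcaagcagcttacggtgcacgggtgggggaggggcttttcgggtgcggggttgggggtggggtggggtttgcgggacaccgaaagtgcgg

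In *Mrps12* the ETS letters stand at the annotated start, in *Mrps26* they are followed within a few bases by 2 overlapping NRF1 matches, and in *Mrps27* the YY1 letters lie downstream of the start. Members with the NRF1 letters had a median log2 fold change in primed cells of −0.37 at P5 and −0.15 at P15, and those without them −0.41 and −0.18. For the ETS letters these medians were −0.38 and −0.10 with a match and −0.42 and −0.18 without. For the YY1 letters, found for 12 members, they were −0.50 and −0.32 with a match and −0.39 and −0.16 without. No test was made of these differences, which are small beside the range among members.

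**Figure D2:**
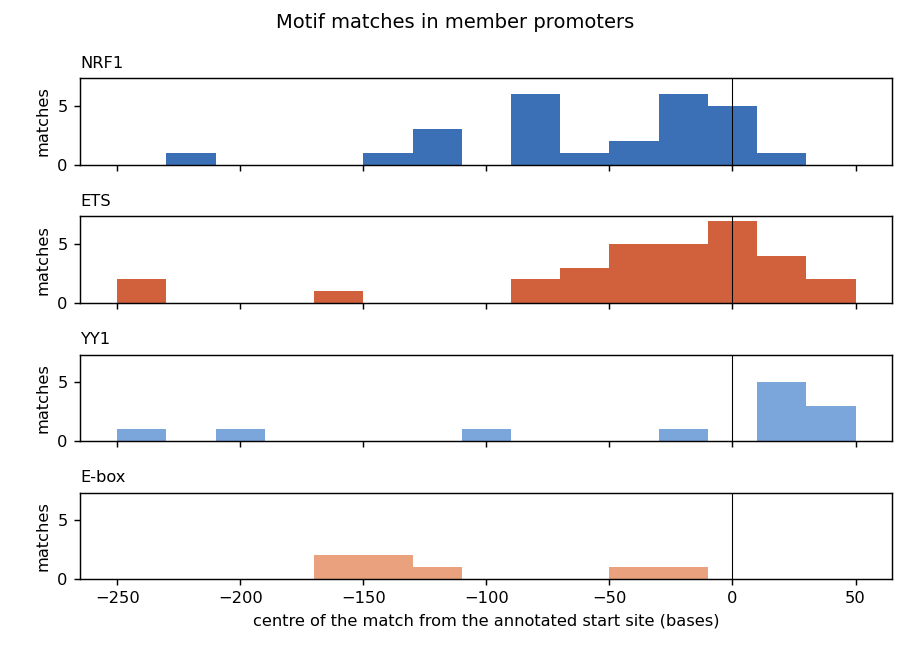
Number of matches (y axis) to the 4 motifs in the promoters of 69 members, by the distance of the centre of the match from the annotated start site in bases (x axis, bins of 20 bases). Each of the 75 promoters was counted by itself, so that a match near several start sites of a gene enters more than once, as for *Mrpl2*. ETS matches gather around the start site and most YY1 matches lie downstream of it, while NRF1 matches are spread over the stretch before it and E-box matches are few.

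At P5 most members were lower in primed cells. By edgeR's quasi-likelihood test at an adjusted p under 0.01, 61 of 77 fell and 1 rose, against 31.1% of all genes tested lower and 31.2% higher. In 70 of 77 members both primed libraries lay below both naïve libraries, which was so for 43.6% of all genes. The median log2 fold change was −0.39 for the members and 0.0078 for all genes. The changes were small, since *Mrps24* alone passed a fold change of 2 as well, while 8.85% of all genes did so downwards and 13.5% upwards. When library sizes were left without TMM factors, the median of all genes moved to 0.21 and that of the members to −0.19, with 35 members lower and 2 higher, and the distance between both medians was about the same as before. Fibroblast markers went both ways, with 12 of 20 lower and 5 higher, and after subtraction of a feeder share the median of the members was −0.43. With library size alone all genes had 6810 higher and 3547 lower calls, against 5147 and 5127 with TMM.

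**Figure D3:**
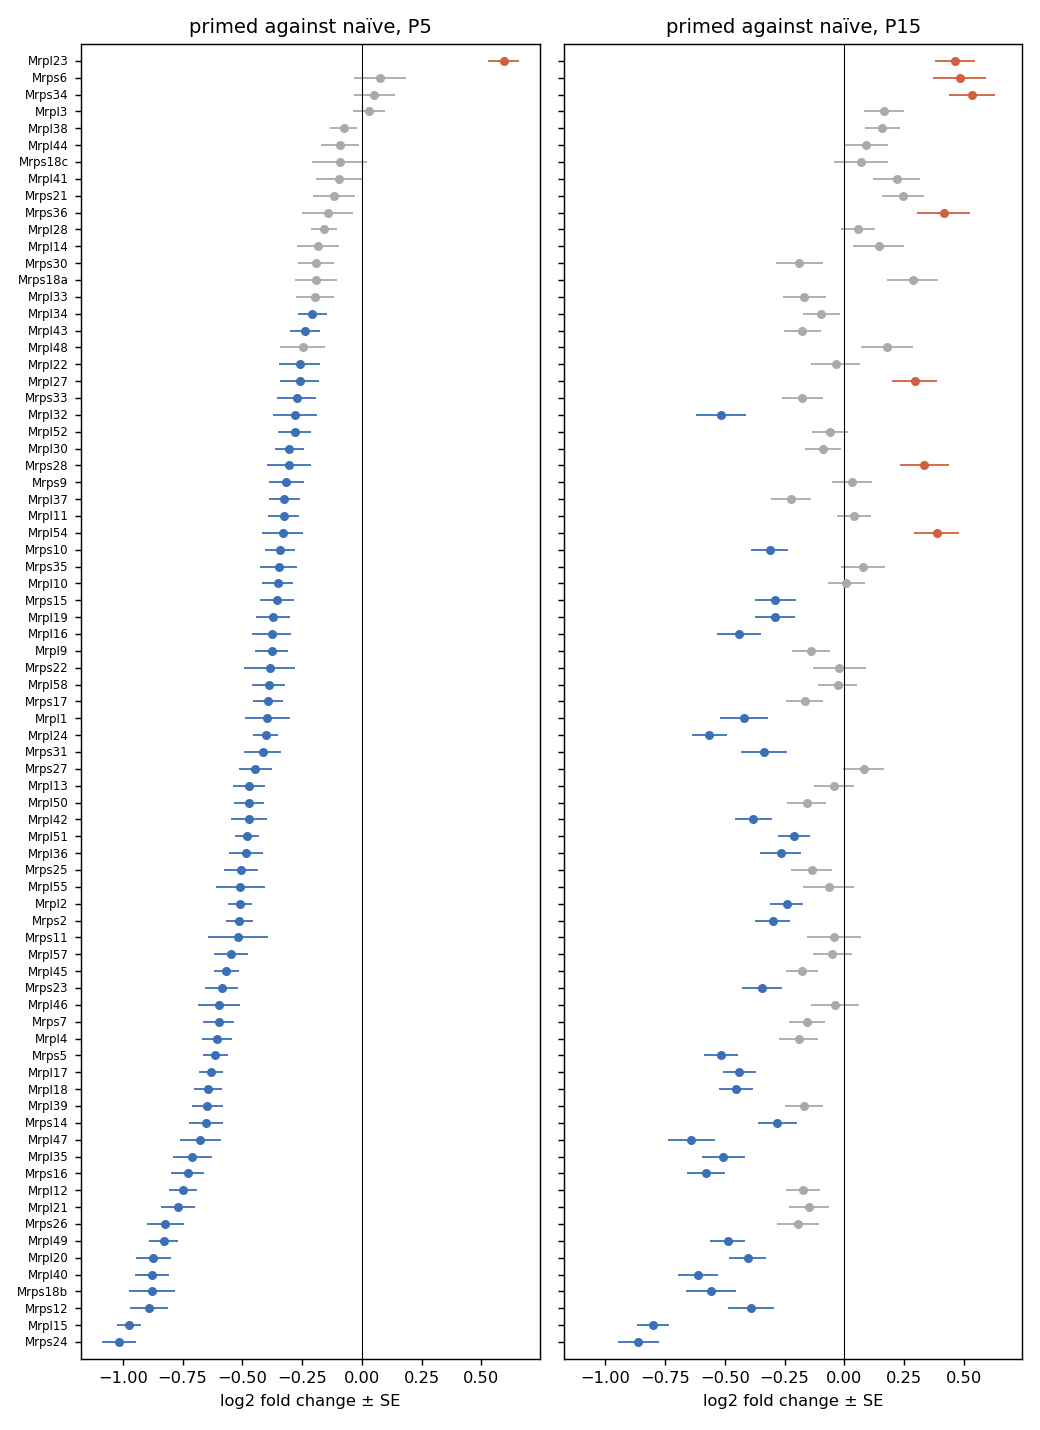
Log2 fold change (x axis) of primed against naïve cells for the 77 members tested, ordered by their value at P5, at P5 (left) and P15 (right); points are estimates, bars the SE, blue marks genes lower and red genes higher at an adjusted p under 0.01, and grey the others. At P5 blue points fill all but the top of the panel, and at P15 many of the same rows are grey, with *Mrpl15* and *Mrps24* lowest in both.

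*Mrps24* (ENSMUSG00000020477, chr11:5703983-5715680 in GRCm38), which encodes the homolog of the bacterial protein S3 at the mRNA entry of the small subunit, had the largest fall. Its level was 50.3 and 54.1 CPM in naïve P5 cells and 24.00 and 26.6 CPM in primed P5 cells, 2.02-fold lower (log2 fold change −1.02 ± 0.072 (SE), adjusted p = 2.06e-13). The groups did not overlap. *Mrpl15* (ENSMUSG00000033845, chr1:4773206-4785739), the homolog of bacterial L15 and the member with the highest CPM in all naïve libraries, went from 114 and 119.9 CPM to 60.1 and 56.02 CPM (−0.97 ± 0.051, adjusted p = 1.47e-16). *Mrps12* (ENSMUSG00000045948, chr7:28739641-28741820), whose protein lies at the decoding centre like bacterial S12, the site of streptomycin resistance, went from 41.8 and 38.4 CPM to 20.8 and 21.6 CPM (−0.89 ± 0.078, adjusted p = 2.51e-11). In each of these genes both primed libraries lay below both naïve libraries.

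Against this direction, *Mrpl23* (ENSMUSG00000037772, chr7:142532686-142540747) rose in primed cells. It encodes the homolog of bacterial L23 at the exit of the polypeptide tunnel and lies on chromosome 7 near the imprinted genes *H19* and *Igf2*. Naïve P5 libraries had 36.7 and 41.2 CPM and primed P5 libraries 58.2 and 56.6 CPM, 1.51-fold higher (0.59 ± 0.064, adjusted p = 2.01e-09). The rise was found at P15 too, with 40.2 and 41.1 CPM in naïve and 59.7 and 53.2 CPM in primed cells (0.46 ± 0.082, adjusted p = 6.86e-06). Within primed cells P15 against P5 did not pass the test (−0.06 ± 0.069, adjusted p = 0.5), and in MEFs it was 28.2 CPM, below every naïve and primed library.

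The other 15 members did not pass the test at P5. They were *Mrpl3*, *Mrpl14*, *Mrpl28*, *Mrpl33*, *Mrpl38*, *Mrpl41*, *Mrpl44*, *Mrpl48*, *Mrps6*, *Mrps18a*, *Mrps18c*, *Mrps21*, *Mrps30*, *Mrps34* and *Mrps36*. *Mrpl3*, the homolog of bacterial L3 near the peptidyl transferase centre, had 37.99 and 39.8 CPM in naïve and 37.9 and 39.9 CPM in primed P5 cells, so that the groups overlapped (0.03 ± 0.067, adjusted p = 0.689). With library size alone its difference passed the test as higher, at 0.23 and an adjusted p of 0.0037.

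At P15, 28 members fell and 7 rose in primed cells, and 42 did not pass the test. Of all genes 28.4% were lower and 28.2% higher, so that the members' share of lower calls, 36.4%, was not far above the background and their share of higher calls, 9.09%, lay below it. The median was −0.17 for members and −0.0039 for all genes. None reached a fold change of 2, which 11% of all genes did downwards and 12.2% upwards. Both primed libraries were below both naïve libraries in 43 of 77 members and above them in 15, against 40.2% and 41.7% of all genes. With library size alone, 17 members were lower and 12 higher, with a median of −0.062 for members and 0.10 for all genes, and all genes had 5188 higher and 3629 lower calls against 4437 and 4462. Of the fibroblast markers 10 were higher and 6 lower. After subtraction of a feeder share 18 members were lower and 6 higher, with a median of −0.12. Of 14828 genes 3768 were then lower and 3657 higher, with a median of −0.019. The members' share of lower calls was thus near that of all genes in this setting.

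All 28 members lower at P15 were among the 61 lower at P5, which is 45.9% of those 61. The P5 and P15 comparisons share no library, but their cells stem from the same mESC line. The overlap was not counted over all genes, so whether falls recurred more often among members was not tested. In 24 of the 28 the fall was larger at P5. *Mrps24* had 62.8 and 59.1 CPM in naïve and 36.6 and 30.9 CPM in primed P15 cells (−0.86 ± 0.086, adjusted p = 4.95e-11), and *Mrpl15* had 122 and 124 and 70.5 and 71.97 CPM (−0.80 ± 0.066, adjusted p = 3.49e-13). *Mrpl47*, the homolog of bacterial L29, had 30.1 and 28.99 CPM in naïve and 17.3 and 18.9 CPM in primed P5 cells (−0.68 ± 0.087, adjusted p = 6.06e-08). At P15 its values were 33.2 and 35.05 and 21.7 and 22.4 CPM (−0.64 ± 0.098, adjusted p = 5.25e-07). *Mrpl47* shares 24.2% of its exon bases with *Actl6a* or *Ndufb5* on the other strand. In these 3 genes both primed libraries lay below both naïve libraries at each passage.

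Higher in primed cells at P15 were *Mrpl23*, *Mrps34*, *Mrps6*, *Mrps36*, *Mrpl54*, *Mrpl27* and *Mrps28*, the last 2 named after their values were seen. *Mrps34*, which encodes a subunit particular to mitochondria, had 32.5 and 33.6 CPM in naïve and 54.6 and 41.9 CPM in primed cells (0.53 ± 0.097, adjusted p = 1.06e-05). Its primed replicates lay far apart and 77.8% of its exon bases are shared with *Mapk8ip3* or *Nme3*. *Mrps6*, the homolog of bacterial S6, had 19.4 and 17.3 and 24.7 and 26.8 CPM (0.48 ± 0.11, adjusted p = 2.49e-04). Without naïve P15 replicate 2 this became 0.37 with an adjusted p of 0.016. *Mrpl54*, particular to mitochondria, had 26.1 and 29.6 and 38.3 and 35.2 CPM (0.39 ± 0.095, adjusted p = 5.99e-04), and without naïve P15 replicate 1 it was 0.28 with an adjusted p of 0.034. By DESeq2's Wald test 3 members were higher and 21 lower, against 3455 higher and 3717 lower of 15733 genes.

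For 3 members the call was lower at P5 and higher at P15, and these calls were not stable. Both calls were made for 0 members with library size alone, by DESeq2's Wald test, without primed P5 replicate 1 and without naïve P15 replicate 1. In *Mrpl54* alone both calls held with no low-count filter, with a feeder share subtracted, and without naïve P5 replicate 2, primed P5 replicate 2 or primed P15 replicate 2. In this gene naïve P5 libraries had 26.9 and 27.6 CPM and primed P5 libraries 20.3 and 22.1 CPM (−0.33 ± 0.086, adjusted p = 0.00111). The fall at P5 was no longer past the threshold without primed P5 replicate 1 (−0.24, adjusted p = 0.058), with library size alone (−0.13, adjusted p = 0.18) or by DESeq2 (−0.33, adjusted p = 0.020), and DESeq2 gave 0.38 with an adjusted p of 0.011 at P15. *Mrpl27*, the homolog of bacterial L27 near the peptidyl transferase centre, had 28.3 and 29.8 CPM in naïve and 23.6 and 23.9 CPM in primed P5 cells, and 30.2 and 29.5 and 34.7 and 38.97 CPM at P15. *Mrps28* had 22.5 and 26.1 and 19.3 and 19.2 CPM at P5, and 21.7 and 25.3 and 28.3 and 31.5 CPM at P15. In all 3 the naïve levels moved little and the primed levels went from below them to above them.

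Levels changed with passage mainly in primed cells. From P5 to P15, 65 of 77 members rose in primed cells and none fell, against 24.3% of all genes higher and 22.8% lower, with a median of 0.41 for members and −0.0012 for all genes. At an unadjusted p under 0.05, 68 members were higher and 0 lower by edgeR, with no such count over all genes. DESeq2's Wald test called 51 members higher and 0 lower, against 2892 higher and 2635 lower of 15957 genes. In 74 of 77 members both P15 libraries lay above both P5 libraries, which was so for 41.6% of all genes. None of the rises reached a fold change of 2, which 3.18% of all genes did upwards. With library size alone 46 members were higher and 1 lower, with medians of 0.28 for members and −0.13 for all genes, and all genes then had 2554 higher and 4910 lower calls, against 3874 and 3644 with TMM. Fibroblast markers moved in the same comparison, with 17 of 20 higher, 1 lower and a median of 0.91. After subtraction of a feeder share the rise of the members was larger, with a median of 0.55 and 59 members higher.

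*Mrpl20*, the homolog of bacterial L20, had the largest rise. Primed cells had 23.8 and 25.1 CPM at P5 and 45.5 and 47.6 CPM at P15, 1.87-fold higher (0.90 ± 0.079, adjusted p = 2.32e-10). *Mrpl54* rose by 0.76 on the log2 scale (adjusted p = 3.10e-08), as its values above show. *Mrpl57*, which encodes a large subunit protein particular to mitochondria, went from 28.8 and 28.8 to 51.01 and 46.4 CPM (0.73 ± 0.078, adjusted p = 9.36e-09). *Mrps6* went from 14.4 and 16.3 to 24.7 and 26.8 CPM (0.72 ± 0.1, adjusted p = 7.53e-07). The 12 members that did not pass were *Mrpl1*, *Mrpl16*, *Mrpl23*, *Mrpl24*, *Mrpl32*, *Mrpl47*, *Mrps5*, *Mrps10*, *Mrps15*, *Mrps30*, *Mrps31* and *Mrps33*.

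In naïve cells 5 members rose from P5 to P15 and none fell, at 6.49% against 4.21% of all genes higher and 5.01% lower. The median was 0.12 for members and 0.00068 for all genes. Both P15 libraries lay above both P5 libraries in 45 of 77 members and below them in 2, against 28.4% and 29.6% of all genes. At an unadjusted p under 0.05, 27 members were higher and 0 lower by edgeR, with no such count over all genes. DESeq2's Wald test called 3 members higher and 0 lower, against 483 higher and 550 lower of 15683 genes. The 5 were *Mrpl20*, *Mrpl32*, *Mrpl52*, and, named after their values were seen, *Mrpl18* and *Mrpl51*. *Mrpl20* had 47.4 and 43.99 CPM at P5 and 64.01 and 58.5 CPM at P15 (0.42 ± 0.07, adjusted p = 0.00113). *Mrpl52*, the member with the highest level per length, had 44.7 and 41.2 and 56.1 and 56.1 CPM (0.39 ± 0.067, adjusted p = 0.00149), and *Mrpl32*, whose protein is matured by the m-AAA protease of the inner membrane, had 23.4 and 23.5 and 31.2 and 31.1 CPM (0.41 ± 0.082, adjusted p = 0.00413). With no low-count filter, where 27381 genes shared the adjustment, none of the 5 passed. Of the fibroblast markers 10 were higher and 2 lower in this comparison, with a median of 0.36, and their part in the rise of the members was not tested. *Mrpl32* lost its call without any 1 of the 4 libraries (adjusted p 0.011 to 0.014), and *Mrpl52* without naïve P5 replicate 2 (0.32, adjusted p = 0.011).

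Whether the effect of state differed by passage was tested as an interaction over the 8 libraries. The difference, P15 minus P5, was positive and past the threshold in 27 of 77 members and negative in none, against 13.3% of all genes positive and 10.8% negative, with a median of 0.28. At an unadjusted p under 0.05, 52 members were positive and 0 negative by edgeR, with no such count over all genes. DESeq2's Wald test called 14 members positive and 0 negative, against 1679 positive and 1383 negative of 16926 genes. With library size alone 13 members were positive and 0 negative, against 1402 positive and 2585 negative of 16926 genes. The medians were then 0.17 for members and −0.11 for all genes. Fewer members passed without either primed P5 library or without naïve P5 replicate 2, and so did fewer of all genes. Fibroblast markers moved too, with 13 of 20 positive, 1 negative and a median of 0.75, and after subtraction of a feeder share the median of the members was 0.38. This test uses the same libraries as the comparisons above and adds no separate evidence to them. The smallest adjusted p belonged to *Mrpl12* (difference 0.59 ± 0.092, adjusted p = 6.32e-06), *Mrpl21* (0.64 ± 0.11, adjusted p = 1.85e-05), *Mrpl54* (0.73 ± 0.13, adjusted p = 2.95e-05) and *Mrps26* (0.65 ± 0.12, adjusted p = 4.79e-05).

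*Mrpl12* encodes a protein of the flexible stalk to which translation factors bind, and it is also known to bind the mitochondrial RNA polymerase. It had 64.6 and 66.3 CPM in naïve and 39.3 and 36.8 CPM in primed P5 cells (−0.75 ± 0.06, adjusted p = 3.62e-12), and 68.1 and 73.2 and 62.8 and 63.5 CPM at P15 (−0.17 ± 0.072, adjusted p = 0.0334). Primed P15 libraries lay close under the naïve ones, and well above the primed P5 libraries. *Mrpl21*, the homolog of bacterial L21, had 43.1 and 43.2 and 24.4 and 25.2 CPM at P5 and 44.3 and 43.8 and 41.5 and 38.6 CPM at P15. *Mrps26*, particular to mitochondria, had 38.6 and 41.8 and 23.01 and 21.4 CPM at P5 and 40.4 and 44.3 and 38.8 and 35.9 CPM at P15. In these genes too it was the primed P5 libraries that stood apart.

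**Figure D4:**
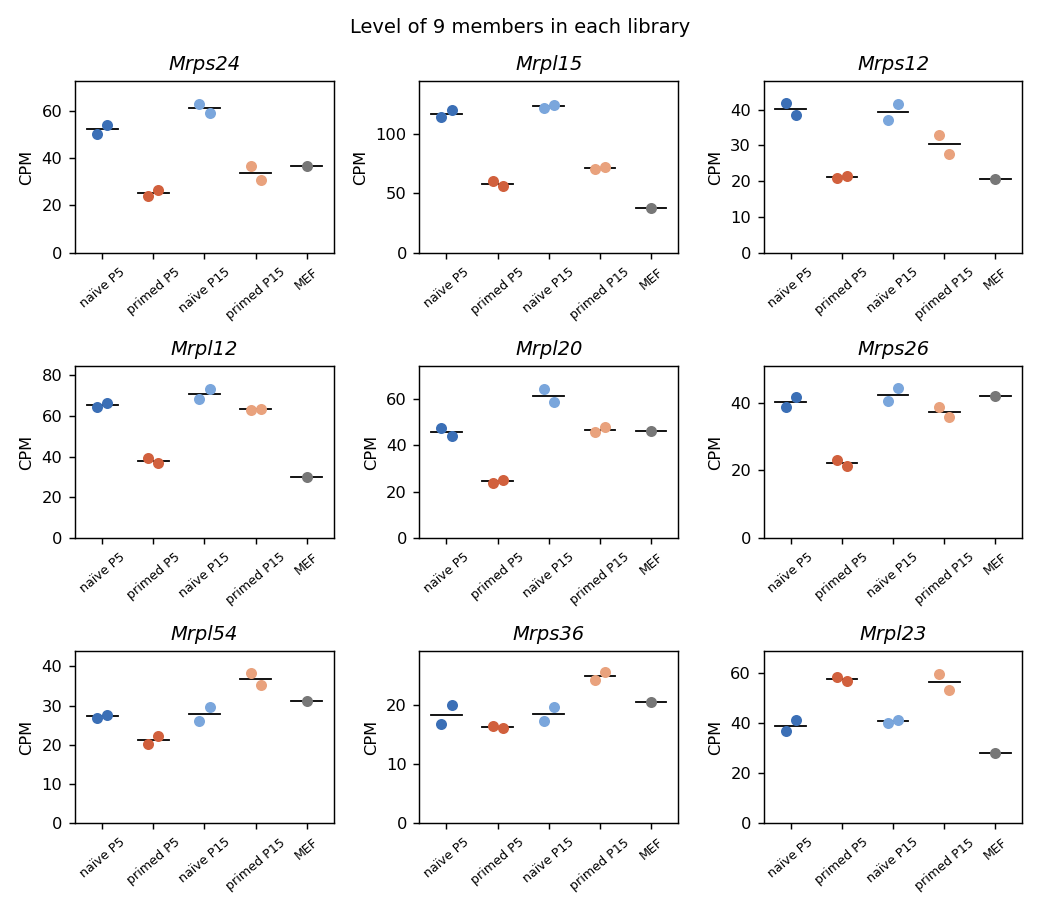
Level of 9 members in CPM (y axis, from 0) in each library by group (x axis); points are libraries and lines group means, with 1 library for MEFs. *Mrps24* and *Mrpl15* stay low in primed cells at both passages, *Mrpl12*, *Mrpl20* and *Mrps26* are lowest in primed P5 cells among the pluripotent groups, *Mrpl54* and *Mrps36* are highest in primed P15 cells, and *Mrpl23* is higher in primed cells at both passages.

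Members with roles of their own took different courses. At the decoding centre, *Mrps12* regained part of its level and had 37.1 and 41.5 CPM in naïve and 32.9 and 27.7 CPM in primed P15 cells (−0.39 ± 0.096, adjusted p = 5.36e-04). The call was lost without primed P15 replicate 2 (−0.24, adjusted p = 0.052), without naïve P15 replicate 2 (−0.33, adjusted p = 0.011), with library size alone (−0.29, adjusted p = 0.012) and with a feeder share subtracted (−0.37, adjusted p = 0.026). *Mrpl58* (ICT1), a peptidyl-tRNA hydrolase in the large subunit that can release stalled ribosomes, had 41.1 and 41.8 CPM in naïve and 32.2 and 29.7 CPM in primed P5 cells (−0.39 ± 0.07, adjusted p = 1.56e-05, and with library size alone −0.19, adjusted p = 0.021), and 42.1 and 44.1 and 43.04 and 42.2 CPM at P15. *Mrpl44*, which has an RNase III-like fold, had 28.3 and 29.1 and 25.5 and 27.2 CPM at P5 (−0.09 ± 0.079, adjusted p = 0.306). *Mrps27*, a pentatricopeptide repeat protein of the small subunit, had 40.8 and 43.8 and 30.1 and 30.7 CPM at P5 (−0.45 ± 0.07, adjusted p = 2.08e-06), and 40.1 and 47.3 and 46.2 and 47.04 CPM at P15. It shares 24.2% of its exon bases with *6430562O15Rik* on the other strand. *Mrps22*, particular to mitochondria, had 17.8 and 21.3 and 14.9 and 14.3 CPM at P5 (−0.38 ± 0.11, adjusted p = 0.00204). It lost the call without naïve P5 replicate 2 (−0.27, adjusted p = 0.046), without either primed P5 library (adjusted p 0.026 and 0.047), with library size alone (−0.18, adjusted p = 0.13), with no low-count filter (adjusted p = 0.022) and by DESeq2's Wald test (adjusted p = 0.028).

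Mammals have 3 homologs of bacterial S18, and they differed. *Mrps18b* had 24.3 and 27.4 CPM in naïve and 13.9 and 13.6 CPM in primed P5 cells (−0.88 ± 0.097, adjusted p = 3.49e-09), and 27.5 and 30.9 and 20.8 and 19.3 CPM at P15 (−0.56 ± 0.11, adjusted p = 1.87e-05), and its groups did not overlap. *Mrps18a*, whose protein sits in the large subunit despite its name, had 24.3 and 26.6 and 22.9 and 20.6 CPM at P5 (−0.19 ± 0.089, adjusted p = 0.054), and 22.5 and 23.1 and 30.7 and 25.3 CPM at P15 (0.28 ± 0.11, adjusted p = 0.0193). *Mrps18c* had 13.5 and 15.4 and 14.2 and 12.3 CPM at P5 (−0.09 ± 0.12, adjusted p = 0.485), and 18.6 and 21.2 and 20.3 and 21.9 CPM at P15 (0.07 ± 0.11, adjusted p = 0.614). Of the 3, *Mrps18b* alone passed the test in primed against naïve cells, and the differences between the 3 genes were not tested. *Mrps18a* did pass as higher at P15 with library size alone (0.39, adjusted p = 0.0027), with crossed pairs (0.29, adjusted p = 0.0067) and without primed P15 replicate 2 (0.45, adjusted p = 0.0014), and as lower at P5 without naïve P5 replicate 1 (−0.28, adjusted p = 0.0092). *Mrps18b* shares 30.5% of its exon bases with *Gm16279* and *Mrps18c* 23.2% with *Gm43511*.

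*Mrps36* carries the name of a small subunit protein but is known as a component of the 2-oxoglutarate dehydrogenase complex of the citric acid cycle. It had 16.7 and 19.99 CPM in naïve and 16.4 and 16.1 CPM in primed P5 cells (−0.14 ± 0.1, adjusted p = 0.223). At P15 it had 17.3 and 19.6 and 24.2 and 25.4 CPM and was higher in primed cells (0.42 ± 0.11, adjusted p = 0.0013), a call that was lost without naïve P15 replicate 1 (0.31, adjusted p = 0.042) and by DESeq2's Wald test (0.41, adjusted p = 0.020).

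In primed against naïve cells, shares of calls and medians were close between the subunits. At P5, 39 of 48 *Mrpl* genes fell and 1 rose, and 22 of 29 *Mrps* genes fell, each with a median of −0.39. At P15, 17 *Mrpl* genes fell and 3 rose with a median of −0.16, and 11 *Mrps* genes fell and 4 rose with a median of −0.17. From P5 to P15 in primed cells 42 *Mrpl* and 23 *Mrps* genes rose, with medians of 0.38 and 0.48. In naïve cells 5 *Mrpl* and 0 *Mrps* genes rose, with medians of 0.14 and 0.096. For the difference between passages 16 *Mrpl* and 11 *Mrps* genes passed, with medians of 0.25 and 0.38. Whether the subunits differ in these values was not tested. Summed levels in primed P5 cells were 72.5% of the naïve level for *Mrpl* and 71.0% for *Mrps*, and at P15 they were 88.6% and 89.9%. Of 46 members with a bacterial homolog, 38 fell and 1 rose at P5, and 21 fell and 4 rose at P15. Of 30 tested members particular to mitochondria, 23 fell at P5, and 7 fell and 2 rose at P15. Medians at P5 were −0.39 and −0.40 for these classes, and those at P15 −0.17 and −0.15. The classes were written from general knowledge after the values were known.

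Per kb of the longest principal transcript, levels of the detected members spanned a 22.6-fold range over the naïve and primed libraries, from 4.98 to 112 CPM per kb with a median of 29.3. Highest were *Mrpl52* with 112, *Mrpl34*, the homolog of bacterial L34, with 90.5 and *Mrpl2*, the homolog of bacterial L2, with 80.3 CPM per kb. Lowest were *Mrpl48* with 4.98 and *Mrps25* with 6.17 CPM per kb. Such levels depend on which transcript is taken for the length, since a long annotated 3′ end lowers the value. *Mrpl2* had 89.4 and 88.8 CPM in naïve and 61.1 and 61.3 CPM in primed P5 cells (−0.51 ± 0.05, adjusted p = 2.75e-10). *Mrpl52* had 34.7 and 34.3 CPM in primed P5 cells, against 44.7 and 41.2 CPM in naïve ones (−0.28 ± 0.068, adjusted p = 6.06e-04), a call that was lost with library size alone (−0.078, adjusted p = 0.31), by DESeq2's Wald test (adjusted p = 0.013) and without either primed P5 library (adjusted p 0.016 and 0.021). *Mrps25* shares 69.8% of its exon bases with *Nr2c2* on the other strand, and it had 39.5 and 40.9 CPM in naïve and 28.4 and 26.9 CPM in primed P5 cells (−0.51 ± 0.072, adjusted p = 3.93e-07). *Mrpl48* had 21.4 and 22.7 and 17.6 and 18.7 CPM at P5 (−0.25 ± 0.093, adjusted p = 0.0189).

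In MEFs, with 1 library and no test, the members summed to 2397 CPM, below every naïve and primed library. The counts and ratios that follow were not taken over all genes. They therefore do not show whether low levels in MEFs are particular to the members. Of 77 detected members, 38 were lower in MEFs than in all 8 other libraries, 36 lay between them and 3 were higher, and the median ratio of the MEF level to the mean of the 8 libraries was 0.72. The 3 were *Mrpl33*, the homolog of bacterial L33, with 49.7 CPM and a ratio of 1.45, *Mrpl14*, the homolog of bacterial L14, with 32.4 CPM and a ratio of 1.33, and *Mrpl48* with 27.1 CPM and a ratio of 1.27. *Mrpl33* had 31.1 and 36.4 CPM in naïve and 28.2 and 29.5 CPM in primed P5 cells (−0.20 ± 0.08, adjusted p = 0.0314), and *Mrpl14* had 23.3 and 25.8 and 20.9 and 21.4 CPM (−0.18 ± 0.088, adjusted p = 0.0633). The lowest ratios were those of *Mrpl45*, which anchors the ribosome to the inner membrane near its tunnel exit, with 32.7 CPM and a ratio of 0.378, and of *Mrpl34* with 22.1 CPM and a ratio of 0.403. *Mrpl45* had 94.4 and 103 CPM in naïve and 63.6 and 66.6 CPM in primed P5 cells (−0.57 ± 0.052, adjusted p = 6.30e-11).

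Other genes of mitochondrial translation were lower in primed cells more often than all genes at P5 (31.1% lower), while at P15 the shares of most lists were near that of all genes (28.4% lower). Of 5 ribosomal proteins with other symbols, 4 fell at P5 and 2 at P15. *Dap3*, a GTP-binding protein of the small subunit, had 105 and 111 CPM in naïve and 60.7 and 60.96 CPM in primed P5 cells (−0.80, adjusted p = 8.24e-15), and 102 and 99.6 and 64.3 and 60.95 CPM at P15 (−0.70, adjusted p = 3.65e-11). *Ptcd3* (MRPS39), a pentatricopeptide repeat protein of the small subunit, had 101 and 102 and 49.99 and 48.8 CPM at P5 (−1.003, adjusted p = 8.47e-17), and 108 and 109.9 and 58.5 and 57.9 CPM at P15 (−0.91, adjusted p = 2.34e-14). In both, primed libraries of both passages lay below all naïve libraries.

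Of 26 ribosome assembly factors, 17 fell (65.4%) and 2 rose at P5, and 9 fell (34.6%) and 2 rose at P15. *Rbfa*, which acts in maturation of the small subunit, changed by −0.82 on the log2 scale at P5 (adjusted p = 1.45e-11) and by −0.74 at P15 (adjusted p = 1.46e-09). *C1qbp*, a matrix protein needed for mitochondrial translation, had −0.84 (adjusted p = 3.07e-18) and −0.49 (adjusted p = 2.26e-09). Of 15 tested translation factors and mRNA-binding proteins, 8 fell (53.3%) and 1 rose at P5, and 5 fell (33.3%) and 1 rose at P15. *Gfm2*, an elongation factor G homolog that recycles ribosomes, had −0.97 (adjusted p = 1.26e-14) and −0.80 (adjusted p = 2.42e-11), and *Lrpprc*, which stabilises mitochondrial mRNAs, had −1.08 (adjusted p = 1.37e-18) and −0.55 (adjusted p = 6.96e-09). Of 17 mitochondrial aminoacyl-tRNA synthetases, 8 fell (47.1%) and 1 rose at P5 and 5 fell (29.4%) at P15. Among them *Tars2*, for threonine, had −0.63 (adjusted p = 3.04e-10) and −0.53 (adjusted p = 1.52e-07).

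Of 11 regulators of mitochondrial gene expression tested at P5, 7 fell and 1 rose, and of 10 tested at P15, 6 fell and 1 rose. At P5 the gene that rose passed a fold change of 2 as well, and 0 of those that fell did. Log2 fold changes in this list ranged from −0.86 to 4.49 at P5. *Gabpa*, the DNA-binding subunit of the ETS factor GABP, had 151 and 143 CPM in naïve and 80.01 and 78.9 CPM in primed P5 cells (−0.86, adjusted p = 2.01e-16), and 149 and 141 and 89.4 and 89.2 CPM at P15 (−0.71, adjusted p = 4.60e-12). *Pprc1*, a coactivator of the PGC-1 family, had 184 and 185 and 118 and 114 CPM at P5 (−0.64, adjusted p = 2.11e-14), and 180.0 and 188 and 119 and 117 CPM at P15 (−0.65, adjusted p = 1.32e-11). From P5 to P15 in primed cells 24.3% of all genes were higher, and the shares were near this for assembly factors, with 7 of 26 (26.9%), for synthetases, with 4 of 17 (23.5%), and for translation factors, with 5 of 15 (33.3%) and 1 lower. Of the 5 other ribosomal proteins 4 rose. Of the 11 regulators 0 were higher and 0 lower in this comparison.

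Cytoplasmic ribosomal proteins fell too, in a larger share than the members at both passages, while the medians at P5 were close. Of 80 cytoplasmic ribosomal protein genes tested at P5, 78 fell (97.5%) with a median of −0.43, and of 79 tested at P15, 59 fell (74.7%) and none rose, with a median of −0.25. For the members these were 79.2% and −0.39 at P5 and 36.4% and −0.17 at P15. From P5 to P15 in primed cells 57 rose and 1 fell with a median of 0.19, below the 0.41 of the members. The 13 protein genes of the mitochondrial genome took another course, with 6 lower and 2 higher in primed cells at P5, 12 lower at P15, all 13 higher at P15 than at P5 in naïve cells (median 0.75) and 12 higher in primed cells (median 0.42). Protein-coding genes with a principal transcript no longer than that of the median member were shifted the same way in the P5 comparison and between passages in primed cells, and hardly at P15. Of 1563 such genes at P5, 672 fell and 290 rose with a median of −0.22, of 1492 at P15, 421 fell and 333 rose with a median of −0.032, and of 1489 in primed cells from P5 to P15, 675 rose and 161 fell with a median of 0.27. These gene groups were chosen after values of these data were seen, and the part that transcript length or RNA quality has in the changes of the members was not tested.

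**Figure D5:**
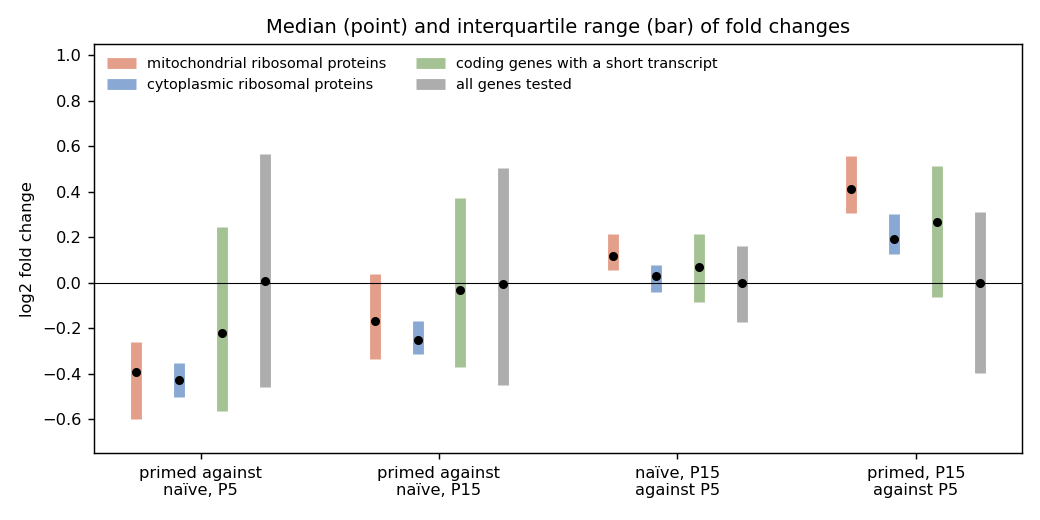
Log2 fold change (y axis) in 4 comparisons (x axis) for the members, cytoplasmic ribosomal proteins, protein-coding genes with a short transcript and all genes tested; points are medians and bars run from the first to the third quartile of genes. Members and cytoplasmic ribosomal proteins lie below 0 in primed cells at P5, and the members have the highest median, 0.41, in primed cells from P5 to P15.

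Many members share a promoter region with a neighbour on the other strand. A protein-coding gene starting within 1000 bases in the opposite direction was found for 33 of 78 members (42.3%), against 2124 of 14485 protein-coding genes tested at P5 (14.7%). Several partners are mitochondrial themselves, such as *Sars2* beside *Mrps12*, *Twnk* beside *Mrpl43*, *Ndufs6* beside *Mrpl36*, *Ndufb5* beside *Mrpl47* and *Ptcd2* beside *Mrps27*. *Mrps11* and *Mrpl46* are each the partner of the other. *Mrps11* had 14.9 and 20.2 CPM in naïve and 11.5 and 12.5 CPM in primed P5 cells and 18.9 and 21.4 and 19.7 and 19.8 CPM at P15, and *Mrpl46* had 27.3 and 28.4 and 17.9 and 18.2 CPM at P5 and 30.1 and 26.8 and 26.7 and 28.9 CPM at P15. In both, the primed P5 libraries were the lowest of the 8.

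Counts of overlapping genes are uncertain. Of the 78 members, 33 share exon bases with another annotated gene and 10 share over 20% of them. Without these 10 the counts were 54 lower and 1 higher of 68 at P5, and 24 lower and 6 higher at P15. *Mrpl53*, a large subunit protein particular to mitochondria, has 88.0% of its exon bases in common with other genes, and its whole principal transcript of 695 bases is also part of *Gm42688* on the same strand. Its 0 counts allow up to 3 counts a library, or 0.148 to 0.221 CPM in naïve and primed cells, for reads assigned to it, and do not show that it is not transcribed. The 5 annotated processed copies of members held 502 counts over all libraries, against 522217 for the members.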

How the data were processed

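Raw counts per gene from 9 RNA-seq libraries were used. The authors made the deposited counts from poly(A) RNA, with NEBNext Ultra libraries sequenced on an Illumina HiSeq, reads trimmed by Cutadapt, aligned to mm10 by HISAT2 with up to 20 alignments a read, and counted by featureCounts on Ensembl genes. The Ensembl release and the handling of strand and of reads with several alignments are not given in the sources used here, and the library kit does not mark strand. States, passages and replicates were read from the sample titles. GENCODE M21 (GRCm38) and a table of gene names gave symbols for 54165 of 54232 IDs, and 92 spike-in entries held 0 counts.

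Libraries were compared by edgeR 4.0.16 (R 4.3.3) with TMM scaling and its two-sided quasi-likelihood test, on genes with at least 10 counts in at least 2 libraries of the fit, and p-values were adjusted by the Benjamini-Hochberg method over all genes tested (16482 at P5, 15733 at P15, 15683 and 15957 between passages in naïve and primed cells, 16926 for the difference between passages). Calls were made at an adjusted p under 0.01, and folds of at least 2 were counted besides, thresholds taken from the study. Each comparison used its own 4 libraries and the difference between passages all 8, and the MEF library entered no fit. CPM were scaled by TMM over the 9 libraries, the SD is of 2 libraries, and a gene without a count could hold up to 3 counts, which covers counting error only. Levels per kb use the longest APPRIS principal transcript. Code was tested on simulated counts.

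Named were the 3 called members with the largest change in each direction of each group comparison, the 4 with the smallest adjusted p for the difference between passages, the 3 highest and 3 lowest per kb, 12 members with known roles, members without counts, the 2 highest and 2 lowest in MEFs relative to the others, and from each list of other mitochondrial genes the 2 with the smallest larger adjusted p of the P5 and P15 comparisons. The members and all lists were chosen with earlier results of these data known. Results were recomputed with the Wald test of DESeq2 1.42.0, with its size factors, with unscaled library sizes, with every counted gene kept, with a fit of all 8 libraries, with a replicate block, with subtraction of a feeder share (MEF counts times the median ratio of the fibroblast markers) and with each library left out. A block with crossed pairs and leaving out overlapped members were added after seeing the data.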

Additional observations from a re-analysis of the deposited data

Results flagged for a closer look

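For 27 members the change from naïve to primed cells differed between P5 and P15 by the interaction test of edgeR (adjusted p under 0.01, 8 libraries), in each case with a more positive value at P15. The differences of the log2 fold change, P15 minus P5, were 0.73 for *Mrpl54*, 0.65 for *Mrps26*, 0.64 for *Mrpl21*, 0.59 for *Mrpl12*, 0.54 for *Mrps27* and 0.51 for *Mrpl57*, and these 6 stayed past the threshold under every alternative run, leaving out each library included. They were 0.48 for *Mrpl20* and 0.40 for *Mrpl45*, which missed the threshold only without primed P5 replicate 1 (0.42, adjusted p = 0.014, and 0.34, adjusted p = 0.011).

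The difference was 0.57 for *Mrps36*, 0.52 for *Mrps12*, 0.50 for *Mrps34*, 0.49 for *Mrps18a*, 0.38 for *Mrps25* and 0.38 for *Mrpl58*, and these lost their call with library size alone, by DESeq2's Wald test and without several single libraries. *Mrps34* was 0.30 without primed P15 replicate 1 (adjusted p = 0.12) and 0.32 without primed P5 replicate 2 (adjusted p = 0.13). *Mrps18a* was 0.35 without primed P15 replicate 1 (adjusted p = 0.074) and *Mrps12* was 0.39 (adjusted p = 0.028). *Mrps25* was 0.29 without naïve P15 replicate 1 (adjusted p = 0.057), *Mrpl58* was 0.30 without primed P5 replicate 2 (adjusted p = 0.062), and *Mrps36* was 0.45 without naïve P5 replicate 2 (adjusted p = 0.038). Outside the members, *Lrpprc* (0.55) and *C1qbp* (0.37) also differed between the passages and kept the call under every alternative run.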

How the results depend on the processing

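The direction of every median was the same under all alternatives run. With library size alone, 2 members were higher and 35 lower at P5 (median −0.19), 12 higher and 17 lower at P15 (−0.062), 1 lower in primed cells between passages (0.28), and 13 differed between passages (0.17). With a feeder share subtracted, the medians were −0.43 at P5, −0.12 at P15 with 18 lower, 0.16 and 0.55 between passages in naïve and primed cells, and 0.38 for the difference. DESeq2's Wald test gave 3 higher at P15, 3 higher in naïve cells and 14 for the difference, and without a low-count filter these were 0 in naïve cells and a median of 0.31 for the difference. Without scaling, the summed CPM of the members were 3352, 2839, 3605 and 3425 in naïve P5, primed P5, naïve P15 and primed P15 cells.

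Leaving out each library in turn, with the lone library assumed to vary like the others, gave medians of −0.43 (without naïve P5 replicate 1) to −0.38 at P5, and of −0.18 to −0.12 (without either primed library) at P15, with 3 (without naïve P15 replicate 1) to 8 higher. In naïve cells 3 (without naïve P15 replicate 1) to 4 were higher with medians of 0.091 to 0.14. In primed cells medians were 0.38 to 0.44, and for the difference 0.26 to 0.30 with 10 (without primed P5 replicate 1) to 24 members.

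Replicate numbers were not shown to pair the libraries, as deviations of same-numbered libraries correlated at −0.094 at P5 and −0.12 at P15, and at 0.12 in naïve and 0.11 in primed cells between passages, with 2 numbers each. A replicate block gave 61 lower and 1 higher at P5, 22 lower and 5 higher at P15, 13 higher in naïve and 67 in primed cells between passages, and 24 for the difference. Crossed pairs at P15 gave 30 lower and 9 higher.

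Signs turned only for values that did not pass the test. At P5 with library size alone these were *Mrps18c* (0.11), *Mrpl14* (0.018), *Mrps18a* (0.010), *Mrpl44* (0.11), *Mrps36* (0.059) and *Mrpl33* (0.0068). Leaving out libraries, they were *Mrps18c* at P5 (−0.21 to 0.030, the latter without primed P5 replicate 2) and P15 (−0.039 without naïve P15 replicate 1, to 0.15), *Mrpl3* at P5 (−0.029 without naïve P5 replicate 1, to 0.095), *Mrps34* at P5 (−0.11 without primed P5 replicate 1, −0.0078 without naïve P5 replicate 1, to 0.24) and *Mrpl23* between passages in primed cells (−0.14 to 0.031, the latter without primed P15 replicate 2, and 0.046 with a feeder share subtracted). Of the other values of single genes, 1368 kept their call or lack of one, 195 lost a call and 8 gained one. The cause of these changes was not tested. With 2 libraries a group, small differences of the less abundant members may go undetected.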
